A study of Rattus norvegicus with 11 samples.

Results

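JZL184 was compared with vehicle in the ileum of rats with severe acute pancreatitis (SAP), over 8 of the 11 libraries of the series. The 4 rats of the JZL184 group had SAP and received JZL184, and the 4 rats of the SAP group had SAP and received vehicle. All 8 were SD rats aged 6 to 8 weeks in which SAP was set off by an injection of 3% sodium taurocholate into the pancreatic duct. JZL184 was given at 10 mg/kg into the abdominal cavity, 24 h after that operation, and the ileum was taken 24 h after the dose. The libraries of the SAP group are titled oil in the sample labels, while the methods of the study name a mixture of saline, ethanol and Tween-80 as vehicle. The 3 control libraries were left out. Stranded mRNA libraries were made from total RNA of the tissue, and genes were measured as read counts and as FPKM, reads per kilobase of transcript scaled to the depth of the library. Values in FPKM are given below for libraries 1 to 4 of each group, in that order.

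JZL184 blocks monoacylglycerol lipase (MAGL), the product of Mgll and the main enzyme that breaks down the endocannabinoid 2-arachidonoylglycerol (2-AG). 2-AG activates the receptors CB1 and CB2, the products of Cnr1 and Cnr2, and its breakdown by MAGL also supplies arachidonic acid for prostaglandins. In the gut this system acts on motility, secretion and inflammation. In acute pancreatitis the intestinal barrier can fail, and neutrophils, cytokines and acute phase proteins are part of the response.

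The 8 libraries held between 26341299 and 33847135 reads on genes. SAP libraries 1 and 2 stood apart from the other 6, with scores of 84.0 and 98.9 on a first principal component that held 43.4% of the variance and on which the others lay between -76.9 and 8.86. In both of them long transcripts (above 4 kb) were high against short ones (below 1.5 kb), by 0.908 and 1.02 on the log2 scale, where the other libraries lay between -0.715 and 0.055. JZL184 library 3 stood apart on the second component (-78.5, 22.5% of the variance) and was low in genes of absorptive ileal cells: the FPKM of Apoa1 was 209 in it and at least 1919 in every other library, and that of Fabp6, a bile acid carrier of the ileum chosen after its values were seen, was 79.9 in it and between 409.7 and 13669.8 in the others. Other epithelial genes were mixed there. The FPKM was 157.5 for Cdh1 (132 to 194 over all libraries) and 538 for the enteroendocrine gene Chga, the highest of the 8. It was the lowest of the 8 for the stem cell gene Olfm4 (0.55) and the goblet cell gene Clca1 (11.7, at least 65.6 in the others). The summed level of Paneth cell and epithelial defense genes, in read counts scaled to library size, was 4960 in JZL184 library 3. In the other libraries that level lay between 15700 and 22100. Car1, a carbonic anhydrase gene that is high in the colon, had an FPKM of 478 in JZL184 library 3, against 24.5 in JZL184 library 2 and at most 0.79 in the others. SAP library 2 had 20 reads on 3 Y-linked genes (Uty, Kdm5d, Eif2s3y), against 2084 to 4665 in the others, and 7826 reads on Xist, against at most 56, although the study's methods describe male rats. Results are therefore also given with SAP libraries 3 and 4 as the only SAP libraries, and the part of the library differences in each result was not tested. The samples carry the label of epithelial cells, but smooth muscle genes such as Acta2 (FPKM 82.95 to 266.85), the leukocyte gene Ptprc (2.79 to 32.03) and the neuron gene Uchl1 (2.80 to 17.0) were present in all 8 libraries beside the epithelial gene Epcam (2220 to 3249), so the RNA was not of epithelium alone. In such bulk RNA, fewer cells of a type and less RNA per cell cannot be told apart.

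**Figure D1:**
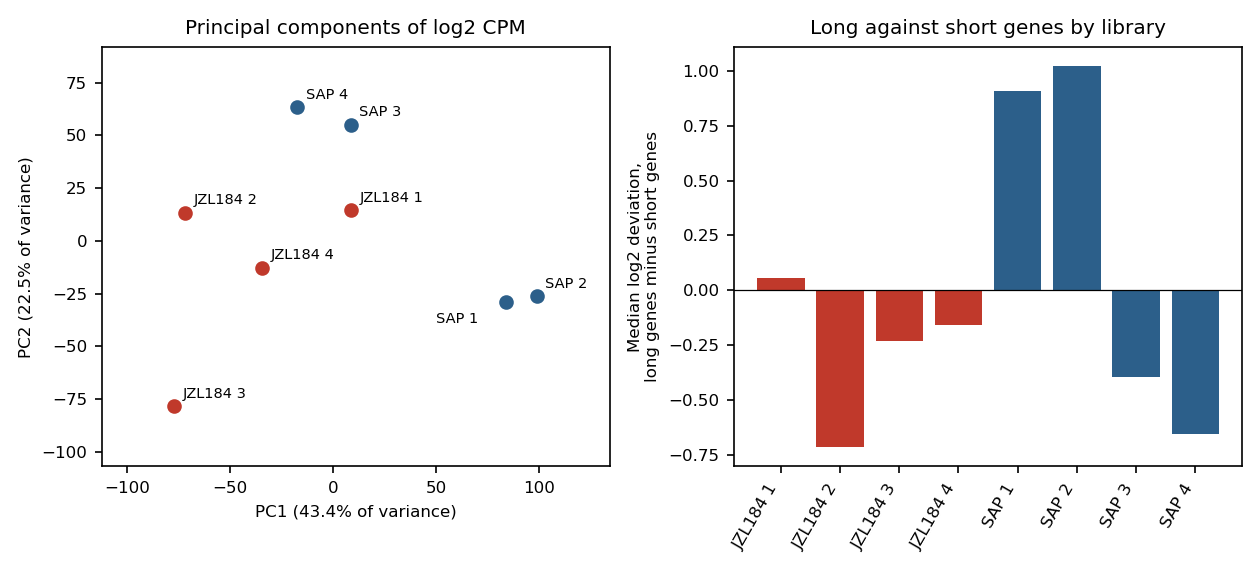
Left, scores of the 8 libraries on the first 2 principal components of log2 normalized counts over 15308 genes, JZL184 in red and SAP in blue. Right, the median log2 deviation of genes above 4 kb minus that of genes below 1.5 kb in each library, in which SAP libraries 1 and 2 reach 0.908 and 1.02 and no other library passes 0.055.

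Between 4 JZL184 and 4 SAP libraries, the quasi-likelihood test of edgeR passed 0 of 15308 genes (0%) on an adjusted p under 0.05 together with a fold change of over 2 or under 0.5, and its smallest adjusted p was 0.0604. With an unadjusted p under 0.05 it listed 3267 genes (21.3%), 1570 higher and 1697 lower in JZL184. DESeq2, the tool of the study, called 1144 of the same genes (7.47%), of which 563 (3.68%) were higher and 581 (3.8%) lower, and each of the 1144 had an unadjusted p below 0.05 with edgeR. Without any model, 1810 genes had normalized counts with no overlap between the groups (11.8%), with 954 (6.23%) higher and 856 (5.59%) lower in JZL184. In the deposited FPKM, which carry no such normalization, 719 genes were higher and 1000 lower without overlap. These shares are the background for every list below, in which "called" means called by DESeq2 and "apart" means no overlap of the groups in normalized counts. The median log2 fold change of all genes tested was -0.05, and 47.4% were higher in JZL184. With SAP libraries 3 and 4 as the only SAP libraries, DESeq2 called 696 genes and edgeR 0. Since edgeR called 0 genes, each difference below is given as a value of these libraries, and the adjusted p of edgeR stands beside that of DESeq2.

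MAGL itself was measured first, as the target of the compound, although JZL184 blocks the enzyme and not its mRNA. Mgll, on chromosome 4 (build mRatBN7.2, as for each gene below outside the promoter sequences), had an FPKM of 4.19, 2.42, 10.5 and 1.56 in the JZL184 libraries and of 2.74, 3.31, 4.93 and 3.75 in the SAP libraries. The groups overlapped, with the highest and the lowest value both in JZL184, and the log2 fold change was 0.44 (standard error, SE, of 0.51 and edgeR adjusted p = 0.625), with the opposite sign (-0.28) without JZL184 library 3. Cnr1, the CB1 gene, was hardly detected (FPKM 0.00 to 0.21) and Cnr2 lay between 0.17 and 0.61, with adjusted p = 0.387 and 0.682 with edgeR and overlapping groups.

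Other genes of the endocannabinoid system were lower. Gpr55 (chromosome 9) encodes a receptor for lysophosphatidylinositol that also binds some cannabinoids. Its FPKM was 0.75, 0.18, 0.09 and 0.57 in the JZL184 libraries and 3.02, 4.92, 2.70 and 1.59 in the SAP libraries. All JZL184 libraries lay below all SAP libraries, and Gpr55 was called lower (log2 fold change -2.77, SE 0.61, edgeR adjusted p = 0.0855, DESeq2 adjusted p = 0.000351). Abhd12, on chromosome 3, encodes another hydrolase that can break down 2-AG. It had an FPKM of 59.5, 25.3, 29.6 and 39.1 in JZL184 and of 115, 134, 95.6 and 69.2 in SAP, again without overlap, and was called lower (log2 fold change -1.26, SE 0.29, edgeR adjusted p = 0.0895, DESeq2 adjusted p = 0.00551). Of the 12 genes of this system that were tested, 3 were higher and 9 lower in JZL184, 2 were called, both of them lower (1 without JZL184 library 2, 4 without JZL184 library 1), and the median log2 fold change was -0.60. Daglb, which makes 2-AG, and Faah, which breaks down anandamide, were chosen after their values were seen. Daglb had a log2 fold change of -0.88 and Faah one of -0.91 (adjusted p = 0.213 and 0.285 with edgeR), and neither was called. Downstream of arachidonic acid, 4 of 17 genes tested were called and higher: Ptges, the inducible prostaglandin E synthase (log2 fold change 1.97), its receptor gene Ptger2 (1.69), the leukotriene C4 synthase gene Ltc4s (2.52) and the lipoxygenase gene Alox15 (1.36). Alox5 (-1.04) and Lta4h (-1.32), both of the leukotriene route, were lower with groups apart but not called. Of the 17 genes, 8 were higher and 9 lower, with a median log2 fold change of -0.02. Ltc4s, Alox15 and Ptger2 were low in the SAP libraries, with an FPKM of 0.14 to 0.29, 0.15 to 0.18 and 0.11 to 0.18. With SAP libraries 3 and 4 alone, 1 of the 17 genes was called.

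Genes that recruit and expand neutrophils were higher in JZL184, some of them many times over. Cxcl1, a chemokine for neutrophils on chromosome 14, had an FPKM of 218, 339, 388 and 411 in the JZL184 libraries and of 35.4, 5.90, 25.7 and 17.4 in the SAP libraries. The lowest JZL184 library was above the highest SAP library, and the means were 339 ± 86.2 and 21.1 ± 12.5 (SD, n = 4 each). Cxcl1 was higher by 4.18 on the log2 scale (SE 0.54), with the smallest adjusted p of all genes in edgeR (0.0604, shared with other genes) and 1.85e-12 in DESeq2, and the log2 fold change was 4.04 with SAP libraries 3 and 4 alone. Csf3, the gene of the granulocyte colony-stimulating factor G-CSF, had an FPKM of 4.62, 6.82, 7.76 and 4.35 in JZL184 and of 0.88, 0.03, 0.38 and 0.03 in SAP. It was close to undetected in SAP libraries 2 and 4, and was called higher by 4.36 (SE 0.89, edgeR adjusted p = 0.0851, DESeq2 adjusted p = 9.23e-06). Csf2, which encodes GM-CSF, had an FPKM of 5.86, 4.83, 2.39 and 3.52 in JZL184 and of 1.09, 0.69, 0.97 and 1.72 in SAP, again without overlap (log2 fold change 2.03, edgeR adjusted p = 0.0902, DESeq2 adjusted p = 0.00233).

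The other CXC chemokines of this list were higher in JZL184 as well. Cxcl2 had a log2 fold change of 2.13, Cxcl3 one of 2.09 and Cxcl6, chosen after its values were seen, one of 1.63 (adjusted p between 0.13 and 0.156 with edgeR). In SAP library 1 Cxcl2 reached an FPKM of 12.6, just below the lowest JZL184 library at 13.6. Of 7 genes of this list that were tested, 6 were higher and called (background 3.68%), 5 were apart (background 6.23%), and the median log2 fold change was 2.09. With SAP libraries 3 and 4 alone the median was 2.39 and 5 genes were called. Without SAP library 2 or JZL184 library 2, 3 were called, and with any other library left out 4 to 6 were. The 1 gene that was not higher was Csf1, named after its values were seen, the macrophage growth factor gene (-0.12).

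Of 14 markers of the neutrophils themselves, 9 were tested, and Elane, Fpr1, Fpr2, Ngp and Cxcr2 had too few reads for a test. Of the 9, 6 were higher and 3 lower, 0 were apart and 0 were called. The smallest adjusted p was 0.248 with edgeR. With 7.47% of all genes called and 11.8% apart, a count of 0 among 9 genes says little about neutrophils. S100a8, a calcium-binding protein of neutrophils, had an FPKM of 41.4, 149, 6.33 and 21.2 in JZL184 and of 39.5, 4.96, 29.5 and 3.56 in SAP. The summed level of the 14 markers ranged from 33.5 to 390 in CPM (read counts scaled to library size) in JZL184 and from 46.8 to 115 in SAP, so that the groups overlapped.

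Among CC chemokines, which attract monocytes, lymphocytes and eosinophils, the list was mixed. Ccl2, a monocyte chemokine, had an FPKM of 50.8, 47.4, 70.9 and 89.7 in JZL184 and of 27.5, 9.11, 46.8 and 14.8 in SAP and was called higher (log2 fold change 1.55, edgeR adjusted p = 0.138, DESeq2 adjusted p = 0.0344), although SAP library 3 came close to the lowest JZL184 library. Ccl3 was also called higher (2.65). Ccl6 went the other way, with an FPKM of 16.8, 24.4, 9.28 and 21.6 in JZL184 and of 44.1, 67.6, 88.2 and 41.7 in SAP, and was called lower (-1.55, edgeR adjusted p = 0.105). Of 14 members, 9 were higher and 5 lower, with 3 called, 2 without SAP library 2 or JZL184 library 2, and 6 without JZL184 library 1.

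Inflammatory cytokine genes were mostly higher in the JZL184 libraries. These are mRNA values of the ileum, whereas the study reports lower IL-6 and TNF-α protein in serum with JZL184. Il6, which drives the acute phase response, had an FPKM of 10.4, 3.38, 9.24 and 3.97 in JZL184 and of 2.54, 0.43, 1.89 and 2.38 in SAP. The lowest JZL184 value stood above the highest SAP value, and Il6 was called higher, by 1.99 on the log2 scale (SE 0.57, edgeR adjusted p = 0.12, DESeq2 adjusted p = 0.0111). Tnf, on chromosome 20, had an FPKM of 0.91, 5.63, 5.88 and 8.52 in JZL184 and of 1.38, 0.88, 0.88 and 0.43 in SAP. JZL184 library 1 lay inside the SAP range and the other 3 lay above it, and Tnf was called higher (log2 fold change 2.77, SE 0.63, edgeR adjusted p = 0.0865, DESeq2 adjusted p = 0.000476). Il22, a cytokine that acts on epithelium, had the largest difference of the list, with an FPKM of 18.5, 8.70, 1.22 and 13.6 in JZL184 and of 1.29, 0.17, 0.18 and 0.51 in SAP. JZL184 library 3 was close to SAP library 1, and the log2 fold change was 4.43 (SE 0.89, edgeR adjusted p = 0.0851, DESeq2 adjusted p = 5.12e-06).

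Il10, the gene of an anti-inflammatory cytokine, was in the same group. Its FPKM was 0.39, 0.57, 0.58 and 0.35 in JZL184 and 0.14, 0.04, 0.10 and 0.04 in SAP, which is a low level in both, without overlap (log2 fold change 2.702, SE 0.48, edgeR adjusted p = 0.0753, DESeq2 adjusted p = 3.68e-05). Il1a (1.98) and, chosen after its values were seen, Il23a (2.49) were called higher too. Il1b, also chosen in that way, overlapped between the groups, with an FPKM of 28.03, 45.8, 21.5 and 23.9 in JZL184 and of 23.9, 8.68, 33.8 and 8.21 in SAP and an adjusted p of 0.319 with edgeR. In all, 12 of 14 cytokine genes tested were higher, 6 were apart and 6 were called, with a median log2 fold change of 1.27. The median was 1.25 with SAP libraries 3 and 4 alone, where 5 were called, and 5 to 9 were called with 1 library left out, 9 of them without SAP library 4.

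NF-kB is a transcription factor that is held back by the inhibitor IκBα, the product of Nfkbia, and that switches on Nfkbia, Tnfaip3 and Birc3 as feedback. Nfkbia, on chromosome 6, had an FPKM of 204, 334, 573 and 508 in JZL184 and of 81.5, 59.1, 88.7 and 121 in SAP, with every JZL184 library above every SAP library (log2 fold change 2.34, SE 0.41, edgeR adjusted p = 0.0693, DESeq2 adjusted p = 1.36e-05). Tnfaip3, the gene of the ubiquitin-editing protein A20, had an FPKM of 5.87, 7.88, 19.1 and 16.4 in JZL184 and of 4.15, 2.63, 1.41 and 1.09 in SAP (log2 fold change 2.61, edgeR adjusted p = 0.0817, DESeq2 adjusted p = 4.78e-05). Birc3, an inhibitor of apoptosis, was among the genes with the smallest adjusted p in edgeR, with an FPKM of 20.7, 16.9, 31.1 and 25.96 in JZL184 and of 8.48, 7.95, 6.62 and 8.27 in SAP (log2 fold change 1.74, edgeR adjusted p = 0.0604, DESeq2 adjusted p = 2.44e-07). These 3 genes were called higher and had no overlap between the groups.

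Zc3h12a encodes Regnase-1, an RNase that degrades cytokine mRNAs. It had an FPKM of 17.98, 127, 99.4 and 102 in JZL184 and of 14.9, 10.99, 8.17 and 9.83 in SAP. JZL184 library 1 was far below the other 3 but still above every SAP library (log2 fold change 3.204, SE 0.56, edgeR adjusted p = 0.0693, DESeq2 adjusted p = 1.8e-06). Of 13 genes for NF-kB subunits and feedback, 11 were higher, 6 were apart and 4 were called, the fourth being the subunit gene Rel (1.35). The median log2 fold change was 0.73, and 0.62 with SAP libraries 3 and 4 alone, where 5 were called.

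**Figure D2:**
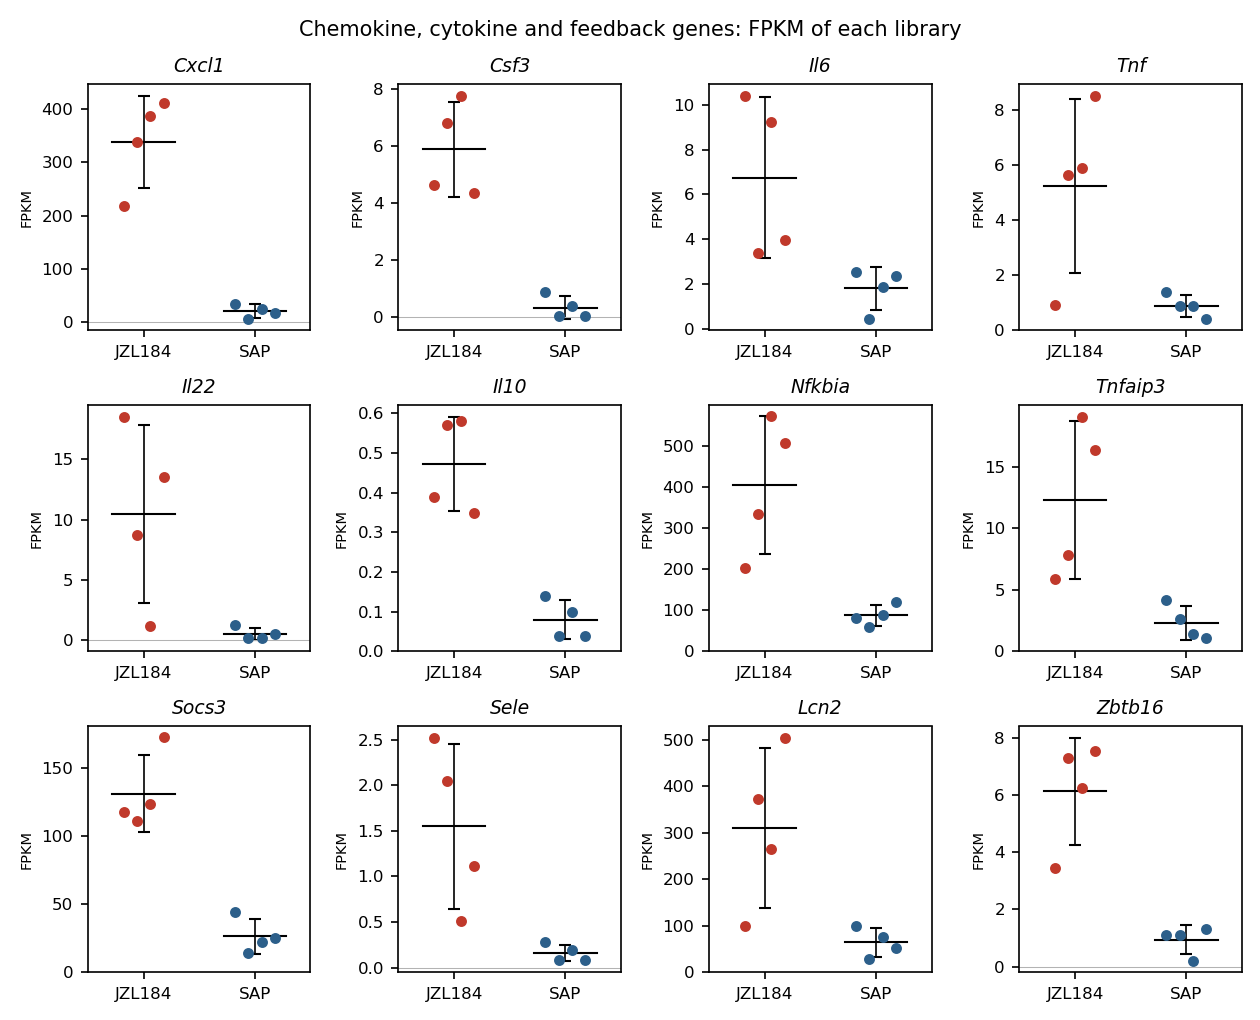
FPKM of 12 chemokine, cytokine, feedback and glucocorticoid response genes, with 1 point per library, JZL184 in red and SAP in blue, a horizontal line at the mean and bars of 1 SD (n = 4). In Cxcl1 the JZL184 libraries lie between 218 and 411 and the SAP libraries at or below 35.4, while in Tnf JZL184 library 1 lies within the SAP range.

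Promoter sequences are shown for 4 of these genes, to let a reader see where the letters of an NF-kB site lie. They are the 150 bases before the transcription start in RefSeq (build GRCr8, not the build of the counts), and capitals mark the letters GGNNTTTCC on either strand, a core of the NF-kB motif. These letters were found in the 250 bases before the start in 8 of the 17 genes of the chemokine and NF-kB lists that the table held (23 were looked up), and in 5.19% of all 33469 promoters. A match is a description of the letters and not a binding site, and overlapping matches run together in capitals.
Cxcl1 (chr14:17479322-17479471, minus strand): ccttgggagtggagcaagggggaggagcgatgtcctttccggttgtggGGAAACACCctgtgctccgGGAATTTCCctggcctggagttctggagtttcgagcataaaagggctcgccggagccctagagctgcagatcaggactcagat
Cxcl2 (chr14:17467256-17467405, minus strand): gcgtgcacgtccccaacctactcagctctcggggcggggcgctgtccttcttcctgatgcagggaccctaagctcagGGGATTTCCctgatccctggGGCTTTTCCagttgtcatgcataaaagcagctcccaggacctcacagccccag
Nfkbia (chr6:78597073-78597222, minus strand): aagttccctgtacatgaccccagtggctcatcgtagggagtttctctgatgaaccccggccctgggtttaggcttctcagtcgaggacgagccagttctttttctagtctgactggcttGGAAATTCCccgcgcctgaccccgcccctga
Tnfaip3 (chr1:15543980-15544129, minus strand): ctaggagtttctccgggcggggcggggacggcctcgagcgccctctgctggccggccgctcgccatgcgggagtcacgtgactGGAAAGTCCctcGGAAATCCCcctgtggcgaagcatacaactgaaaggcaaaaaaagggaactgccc

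Genes of the IL-6 receptor family and the STAT3 response were mixed, with 6 of 9 higher, 3 lower and 3 called, and a median log2 fold change of 0.58 (1.02 with SAP libraries 3 and 4 alone, 0.28 with SAP libraries 1 and 2 alone). Socs3, the feedback inhibitor that STAT3 induces, had an FPKM of 118, 111, 124 and 173 in JZL184 and of 44.2, 13.96, 22.4 and 25.5 in SAP. The JZL184 libraries were close together and all above SAP library 1, the highest of its group (log2 fold change 2.48, SE 0.37, edgeR adjusted p = 0.0604, DESeq2 adjusted p = 3.39e-07). Bcl3 (1.803) and the receptor gene Il6r (1.21) were the other calls, with groups apart. Among acute phase proteins, Lcn2, which binds bacterial siderophores, had an FPKM of 100.3, 372, 264 and 504 in JZL184 and of 100.3, 29.3, 76.6 and 51.5 in SAP. In that gene JZL184 library 1 and SAP library 1 were nearly equal in FPKM (100.3 and 100.3), and the log2 fold change was 2.47 (edgeR adjusted p = 0.0856, DESeq2 adjusted p = 0.000606). Orm1, on chromosome 5, had an FPKM of 11.8, 34.1, 12.1 and 35.3 in JZL184 and of 6.20, 0.86, 4.29 and 1.87 in SAP (log2 fold change 3.05, edgeR adjusted p = 0.0851, DESeq2 adjusted p = 0.000199). Hp (2.28) and A2m (1.43) were called higher too, as was Il1r1 (1.799), the gene of the IL-1 receptor, which is in the same list but is no acute phase protein. These 5 of 12 genes were called and 4 others were lower, and the number called ran from 3 (without JZL184 library 2) to 6 with 1 library left out. None of 16 complement genes was called or apart, and 11 of them were lower.

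Some genes by which activated endothelium binds leukocytes were called higher. Sele, the gene of E-selectin on chromosome 13, had an FPKM of 2.52, 2.05, 0.51 and 1.11 in JZL184 and of 0.28, 0.09, 0.19 and 0.09 in SAP. The value of JZL184 library 3 was the lowest of its group and above all SAP libraries (log2 fold change 3.43, SE 0.60, edgeR adjusted p = 0.0693, DESeq2 adjusted p = 1.8e-06). Icam1 had an FPKM of 6.63, 8.79, 11.6 and 13.7 in JZL184 and of 4.87, 3.27, 5.26 and 2.34 in SAP (log2 fold change 1.55, edgeR adjusted p = 0.0851, DESeq2 adjusted p = 0.00258), and Selp, the gene of P-selectin, had a log2 fold change of 2.004. These 3 of 8 adhesion genes were called and apart, and 2 or 3 were called with any 1 library left out (2 without JZL184 library 2 or 4). Of the other 5, 3 were higher and 2 lower, down to a log2 fold change of -1.39, and with SAP libraries 3 and 4 alone 3 of the 8 were lower. Endothelial and pericyte markers as a whole were split, with 4 higher and 8 lower and a median of -0.07. Kcnj8 (1.24) and Steap4 (1.53) were called higher and Rgs5 (-1.997), a pericyte gene, lower (1 called without JZL184 library 4).

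Clotting genes were called in both directions. Tissue factor, the product of F3 (1.504), and F10 (1.93) were called higher. F13a1, which crosslinks fibrin and is also expressed by macrophages, had an FPKM of 0.60, 0.20, 0.17 and 0.07 in JZL184 and of 0.93, 1.99, 1.91 and 3.43 in SAP and was called lower (-2.89, edgeR adjusted p = 0.0874). Of the 14 genes, 12 were higher. Matrix proteases added Mmp3 (3.18) and Adamts4 (1.895), both called higher with groups apart, in a list with 4 called and 2 or 3 with 1 library left out (2 without JZL184 library 2 or 4 or SAP library 2 or 3).

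Genes that glucocorticoids induce were higher in JZL184. Zbtb16 had an FPKM of 3.43, 7.29, 6.23 and 7.52 in JZL184 and of 1.12, 1.11, 0.19 and 1.32 in SAP, with no overlap (log2 fold change 2.89, SE 0.56, edgeR adjusted p = 0.0851, DESeq2 adjusted p = 3.5e-05). Fkbp5, a co-chaperone of the glucocorticoid receptor, had an FPKM of 61.5, 63.5, 62.9 and 76.05 in JZL184 and of 33.6, 36.8, 15.9 and 30.6 in SAP, with little spread in the JZL184 group (log2 fold change 1.35, edgeR adjusted p = 0.0851, DESeq2 adjusted p = 0.00202). Per1 (1.77), which is also a clock gene, and Tsc22d3 (1.33) were called with groups apart, and Dusp1 (1.75) and Sgk1 (1.498), both chosen after their values were seen, were called with overlapping groups. In total 11 of 13 genes tested were higher, 4 were apart and 8 were called, with a median log2 fold change of 1.35, which was 1.48 with SAP libraries 3 and 4 alone (5 called). On leaving out 1 library, 3 to 5 were called, with 3 without SAP library 1, except without JZL184 library 1 or SAP library 4, where 8 were. Of 16 clock genes 13 were higher and 4 were called, but 1 or 2 were called on leaving out any 1 of JZL184 libraries 2, 3 and 4 and SAP libraries 1, 2 and 3, and the median of 0.57 was 0.28 without JZL184 library 3.

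Metallothioneins, small proteins that bind zinc and copper, were among the largest differences. Mt2A had an FPKM of 140.4, 456, 526 and 359.7 in JZL184 and of 33.3, 18.6, 38.4 and 91.9 in SAP, without overlap (log2 fold change 3.14, SE 0.61, edgeR adjusted p = 0.0851, DESeq2 adjusted p = 2.1e-05). Mt1m had a log2 fold change of 3.15, and reads shared between near-identical metallothionein genes could not be counted for either, since only uniquely aligned reads were used. Among NRF2 targets, Gsta1 (1.13) and, chosen after its values were seen, the heme oxygenase gene Hmox1 (1.91) were called. The list held 11 of 14 genes higher and 4 called, with a median of 0.98, and 2 were called without SAP library 2 or JZL184 library 2 and 7 without JZL184 library 1. Slc2a1, the glucose transporter gene that hypoxia induces, had an FPKM of 12.2, 32.7, 56.2 and 16.9 in JZL184 and of 5.84, 3.69, 9.83 and 6.14 in SAP (log2 fold change 2.35, edgeR adjusted p = 0.0851, DESeq2 adjusted p = 0.000631), and 12 of 15 hypoxia and glycolysis genes were higher, 3 of them called. Immediate early genes were higher in 17 of 18 cases with 4 called, among them Ier3 (2.11) and Fosl1 (1.83), and 1 was called without JZL184 library 2, 2 without JZL184 libraries 3 or 4 or SAP libraries 1, 2 or 3, and 6 without SAP library 4. The stress response genes Ppp1r15a (2.16), Ddit4 (1.62) and Herpud1 (1.27) were called higher, although 10 of 15 genes of the unfolded protein and integrated stress response were lower, and the calls of that list numbered 2 on leaving out any 1 of JZL184 libraries 2 and 4 and SAP libraries 1 and 2. Heat shock chaperones were lower in 9 of 12 cases, with Hsph1 (-1.71) called, while 0 were called on leaving out any 1 of JZL184 libraries 2, 3 and 4 and SAP libraries 2 and 3, and 3 without JZL184 library 1 or SAP library 4.

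Clec9a and Xcr1, markers of cross-presenting dendritic cells, were lower in JZL184. Clec9a, a receptor of these cells for dead cell remains, had an FPKM of 0.08, 0.05, 0.09 and 0.03 in JZL184 and of 0.82, 1.05, 0.43 and 0.41 in SAP. The levels were low, but the groups were far apart (log2 fold change -3.24, SE 0.46, edgeR adjusted p = 0.0604, DESeq2 adjusted p = 1.61e-07). Xcr1, the chemokine receptor of the same cells, had an FPKM of 0.03, 0.06, 0.02 and 0.01 in JZL184 and of 0.22, 0.31, 0.19 and 0.32 in SAP (log2 fold change -2.92, SE 0.58, edgeR adjusted p = 0.0851, DESeq2 adjusted p = 3.78e-05). Without SAP library 2 and without JZL184 library 3, 2 members of this list were called each time. Of 9 dendritic cell markers, 7 were lower, 2 were apart and 2 were called (background 3.8% lower), with a median of -0.77, and -1.02 with SAP libraries 3 and 4 alone. The other 2 were higher, by up to 1.09. The summed level of the 9 markers overlapped between the groups, at 59.2 to 78.8 CPM in JZL184 and 67.3 to 126 in SAP.

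Single markers of other leukocytes were called lower as well, within lists of mixed direction. The macrophage growth factor receptor gene Csf1r (-1.42) was called with groups apart and Adgre1 (-1.95) was called with overlap, yet 5 of 11 macrophage markers were higher and the median was -0.13. None of the 11 (0) was called without SAP library 2, without SAP library 3 or without JZL184 library 4. The mast cell protease gene Cpa3 had an FPKM of 0.06, 0.36, 0.34 and 0.31 in JZL184 and of 1.0, 3.00, 1.38 and 0.84 in SAP and was called lower (log2 fold change -2.31, edgeR adjusted p = 0.109, DESeq2 adjusted p = 0.00623), as was Mcpt2 (-2.15). Without SAP library 2, which had the highest value of Cpa3, neither of these 2 mast cell genes was called, and 1 was without SAP library 3 or JZL184 library 4. Gzmb (-1.07), a protease of cytotoxic lymphocytes, and Jchain (-1.34), the gene of the chain that joins secreted antibodies, were called lower. T cell markers were lower in 10 of 16 cases with a median of -0.48, and B and plasma cell markers higher in 9 of 11 with a median of 0.70, with 1 gene called in each list and between 0 and 2 with 1 library left out. With SAP libraries 3 and 4 alone, 6 of the 11 B and plasma cell markers were higher with a median of 0.04, and with SAP libraries 1 and 2 alone the median was 1.59. The T cell median was -0.82 with SAP libraries 3 and 4 alone and 0.08 with SAP libraries 1 and 2 alone. MHC class II genes had 0 of 8 called and a median of -0.10.

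Interferon-stimulated genes were lower on the whole, with a wide spread between libraries. Ifit1, an antiviral RNA-binding protein, had an FPKM of 3.96, 3.93, 0.06 and 4.36 in JZL184 and of 49.2, 15.5, 11.9 and 33.5 in SAP. It was nearly undetected in JZL184 library 3, all JZL184 libraries lay below all SAP libraries, and the log2 fold change was -2.96 (SE 0.92, edgeR adjusted p = 0.136, DESeq2 adjusted p = 0.00946). Oas1a, chosen after its values were seen, had an FPKM of 5.87, 6.65, 10.1 and 3.62 in JZL184 and of 33.1, 3.73, 21.7 and 85.9 in SAP, so SAP library 2 overlapped the JZL184 group, and was called lower (-2.39, edgeR adjusted p = 0.147).

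Other members did not separate the groups. Isg15, chosen after its values were seen, had an FPKM of 26.2, 69.2, 118 and 20.5 in JZL184 and of 121, 20.9, 91.2 and 884 in SAP. SAP library 4 was far above all others and SAP library 2 among the lowest (log2 fold change -2.22, SE 1.05, edgeR adjusted p = 0.252, DESeq2 adjusted p = 0.104). Cxcl10, a chemokine that interferon induces and also chosen in that way, had an FPKM of 1.25, 2.58, 18.9 and 1.64 in JZL184 and of 1.89, 0.85, 1.25 and 3.10 in SAP, with 1 high library in JZL184. Of 21 genes tested, 16 were lower and 5 higher, 2 were apart, 3 were called (2 to 6 with 1 library left out, 6 without JZL184 library 3), and the median log2 fold change was -1.03. The median moved with the libraries, to -1.42 with SAP libraries 3 and 4 alone, to 0.03 with SAP libraries 1 and 2 alone, to -0.04 at the highest when 1 library was left out, and to -1.57 without JZL184 library 3. Summed over the list, the level ranged from 331 to 1330 CPM in JZL184 and from 463 to 3070 in SAP. Type II interferon, Ifng, had too few reads for a test.

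Related genes outside the list were among the largest lower differences. Ifit1bl, a relative of Ifit1, had an FPKM of 1.43, 0.82, 0.24 and 0.62 in JZL184 and of 10.03, 7.46, 7.99 and 11.2 in SAP (log2 fold change -3.41, SE 0.50, edgeR adjusted p = 0.0604, DESeq2 adjusted p = 6.55e-09). Oasl2 had an FPKM of 1.51, 1.0, 2.41 and 0.35 in JZL184 and of 24.3, 8.21, 5.27 and 9.91 in SAP (-3.02, edgeR adjusted p = 0.0851, DESeq2 adjusted p = 4.54e-05). Batf2, a transcription factor gene that interferon induces, had an FPKM of 0.94, 0.17, 0.14 and 0.09 in JZL184 and of 5.08, 2.30, 2.67 and 1.54 in SAP (-2.95, edgeR adjusted p = 0.0909, DESeq2 adjusted p = 0.000622). The groups were apart in all 3. Being chosen for the size of their difference, they describe these libraries and add no test to the list. The Ifit and Oas families hold close relatives whose reads are hard to separate.

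**Figure D3:**
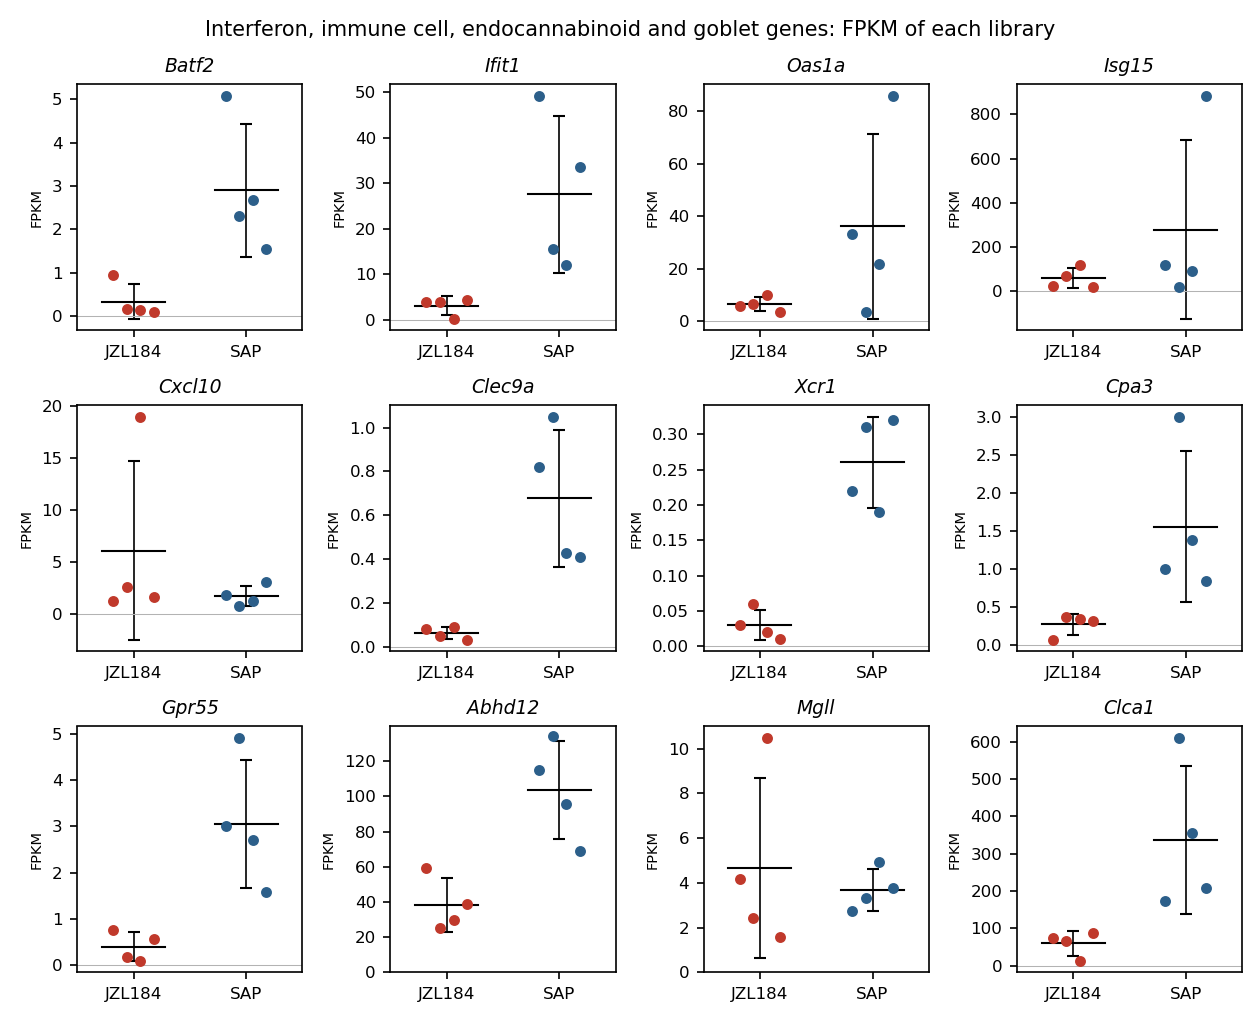
FPKM of 12 interferon, immune cell, endocannabinoid and goblet cell genes, with 1 point per library, JZL184 in red and SAP in blue, a line at the mean and bars of 1 SD (n = 4). In Batf2 the JZL184 libraries lie at or below 0.94 and the SAP libraries at or above 1.54, whereas in Isg15 SAP library 4 stands at 884 and SAP library 2 at 20.9.

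The promoters of 3 of the lower genes are shown in the same way, because they hold the letters of an interferon-stimulated response element. Capitals mark GAAANNGAA on either strand, a core of that element, within the 150 bases before the start. The core was found within 250 bases before the start in 8 of the 13 genes of the interferon list that the table held (21 were looked up), and in 8.12% of all 33469 promoters.
Oas1a (chr12:41330316-41330465, plus strand): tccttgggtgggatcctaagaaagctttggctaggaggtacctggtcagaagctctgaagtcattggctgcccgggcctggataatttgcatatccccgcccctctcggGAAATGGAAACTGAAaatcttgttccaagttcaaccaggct
Oasl2 (chr12:47383186-47383335, minus strand): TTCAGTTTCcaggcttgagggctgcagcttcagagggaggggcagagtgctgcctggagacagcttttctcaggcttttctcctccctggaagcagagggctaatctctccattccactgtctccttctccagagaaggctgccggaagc
Batf2 (chr1:212897196-212897345, plus strand): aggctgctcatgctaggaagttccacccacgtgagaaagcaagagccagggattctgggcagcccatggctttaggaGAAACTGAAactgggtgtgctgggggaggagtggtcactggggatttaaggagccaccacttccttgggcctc

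Lists of epithelial genes held 0 to 2 calls each. Against the background of 7.47% of all genes called, counts this small in lists this short do not set these genes apart. Clca1, a protein that goblet cells secrete into mucus, had an FPKM of 74.2, 65.6, 11.7 and 86.5 in JZL184 and of 174, 611, 355 and 208 in SAP. All JZL184 libraries were below all SAP libraries, and it was called lower (log2 fold change -2.29, SE 0.62, edgeR adjusted p = 0.11, DESeq2 adjusted p = 0.0051). It was the only gene called among 11 goblet cell genes, of which 8 were lower (2 called without JZL184 library 1 or SAP library 4). Vil1, which bundles actin in microvilli, had an FPKM of 193, 105, 64.02 and 164 in JZL184 and of 319, 372, 263 and 275 in SAP, with groups apart but no call (log2 fold change -1.06, edgeR adjusted p = 0.151, DESeq2 adjusted p = 0.0582). Slc13a1, a sulfate transporter, was called lower with an FPKM of 11.6, 6.12, 0.27 and 15.8 in JZL184 and of 100.04, 81.9, 47.8 and 44.6 in SAP (-2.81, edgeR adjusted p = 0.132, DESeq2 adjusted p = 0.00827). JZL184 library 3 was the lowest in each of these 3 genes, as it was for Apoa1, the apolipoprotein gene of absorbed fat, which had an FPKM of 12906, 19658, 209 and 20162 in JZL184 and of 1919, 4144, 5318 and 8991 in SAP. The other 3 JZL184 libraries lay above all SAP libraries in Apoa1, and the adjusted p was 0.375 with edgeR. Brush border genes were 8 higher and 9 lower with a median of -0.03, and 0 of 13 fat absorption genes were called (2 without JZL184 library 3).

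Tight junctions seal the space between epithelial cells, and their loss is one route to a leaky barrier. Tjp1, the gene of ZO-1, had an FPKM of 1.85, 0.74, 1.30 and 1.43 in JZL184 and of 11.1, 12.8, 1.48 and 1.41 in SAP. Only SAP libraries 1 and 2 were high, SAP libraries 3 and 4 lay inside the JZL184 range, and the log2 fold change was -2.11 (SE 0.67, edgeR adjusted p = 0.143, DESeq2 adjusted p = 0.0219) over all libraries and -0.09 with SAP libraries 3 and 4 alone. Of 19 tight junction genes, 8 were higher, 11 lower and 1 called (0 without SAP library 1 or 2 or JZL184 library 2, 3 or 4, 3 without JZL184 library 1 and 4 without SAP library 4), and the median of -0.48 moved to -0.09 with SAP libraries 3 and 4 alone. Marveld3 (-0.88) was the 1 gene with groups apart. Adherens junction and desmosome genes were called in 0 of 12 cases, ion and water transport genes in 1 of 18 and stem cell and Wnt genes in 1 of 13 (0 to 2, 0 to 2 and 0 to 3 with 1 library left out). Of 12 Paneth cell and epithelial defense genes tested, 4 were higher and 8 lower, 0 were apart, and the median log2 fold change was -0.36. Duoxa2 (2.12) and Nos2 (1.85), which serve the making of hydrogen peroxide and nitric oxide, were the 2 calls, both higher with overlapping groups. In that list 0 were called without JZL184 library 2 or 4 or SAP library 3, and 1 without SAP library 2 or 4. Cholesterol synthesis and uptake genes were lower in 15 of 16 cases, with 4 apart, 1 of them higher, and 0 called (median -0.56, and -0.19 with SAP libraries 3 and 4 alone).

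Smooth muscle and matrix genes were mostly lower in JZL184, few of them with a call, while 10 of 14 neuron and glia markers were higher and 0 of those called. Lmod1, an actin filament protein of smooth muscle, had an FPKM of 22.6, 11.9, 20.3 and 11.5 in JZL184 and of 61.9, 55.8, 38.1 and 32.6 in SAP, without overlap (log2 fold change -1.34, SE 0.28, edgeR adjusted p = 0.0851, DESeq2 adjusted p = 0.00146). All 12 smooth muscle markers tested were lower, 2 were apart and 2 were called, with a median of -0.57. With JZL184 library 2 or 4 or SAP library 1 or 2 left out, 1 was called. Their summed level ranged from 1750 to 8040 CPM in JZL184, with the highest of all libraries in JZL184 library 3, and from 3270 to 7230 in SAP. Col3a1, a collagen of loose connective tissue, had an FPKM of 25.6, 9.35, 22.99 and 11.8 in JZL184 and of 56.9, 77.4, 48.3 and 25.4 in SAP, in which SAP library 4 was at the level of the highest JZL184 library (log2 fold change -1.42, edgeR adjusted p = 0.105, DESeq2 adjusted p = 0.0128). Of 22 collagen and matrix genes, 20 were lower, 2 were apart and 6 were called lower. Without SAP library 2, 0 of them were called, and the median of -0.82 moved to -0.49 with SAP libraries 3 and 4 alone. Also 0 were called without SAP library 1 or JZL184 library 2, 1 without JZL184 library 4, 3 without SAP library 3 and 9 without SAP library 4. The 15 focal adhesion and PI3K-Akt genes that the study chose on these samples were all lower, with a median of -1.46 that turned to 0.33 with SAP libraries 3 and 4 alone. The number called, 5, was 0 without SAP library 1 or 2 or JZL184 library 2, 2 without JZL184 library 3 or 4, 8 without SAP library 3 and 11 without SAP library 4. In SAP libraries 1 and 2 the summed level of those 15 genes was 1290 and 1430 CPM, and in the other 6 libraries it ran from 226 to 399.

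RNA-binding proteins were higher in JZL184, in a list of 10 that the study chose on these samples and that is therefore not independent evidence of its direction. Hnrnpdl, which regulates splicing, had an FPKM of 129, 245, 317 and 259.97 in JZL184 and of 87.2, 86.1, 79.6 and 119 in SAP (log2 fold change 1.51, SE 0.35, edgeR adjusted p = 0.0895, DESeq2 adjusted p = 0.00278). Cirbp, a cold-inducible RNA-binding protein, had an FPKM of 23.9, 41.4, 51.05 and 41.04 in JZL184 and of 5.44, 8.03, 9.66 and 21.1 in SAP, where SAP library 4 was close to JZL184 library 1 (1.94, edgeR adjusted p = 0.0951, DESeq2 adjusted p = 0.0042). All 10 were higher and called and 8 were apart, with a median of 1.24 under all SAP libraries and under SAP libraries 3 and 4 alone, where 1 was called. Rbm3, also cold-inducible and outside that list, had an FPKM of 715, 685, 704 and 796 in JZL184 and of 184, 250.02, 157 and 386 in SAP, with no overlap (log2 fold change 1.71, SE 0.36, edgeR adjusted p = 0.0851, DESeq2 adjusted p = 0.000536). Of 23 splicing factors and kinases, 13 were higher, 7 were apart and 3 were called, with a median of 0.22. Cytosolic ribosomal protein genes, which are short, were higher in 19 of 19 cases but 0 were apart and 0 called (15 without SAP library 4), and their median of 0.83 was 0.29 with SAP libraries 3 and 4 alone and 1.73 with SAP libraries 1 and 2 alone.

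Some of the largest differences lay in genes of no list. Lpo, the gene of lactoperoxidase, a peroxidase of secretions, had an FPKM of 1.53, 13.5, 141 and 4.98 in JZL184 and of 0.90, 0.30, 0.26 and 0.10 in SAP. JZL184 library 3 set most of the mean, and the groups were apart (log2 fold change 6.83, SE 1.46, edgeR adjusted p = 0.0851, DESeq2 adjusted p = 3.5e-05), with 4.42 without that library. Krt78, a keratin gene, had an FPKM of 0.40, 1.45, 7.25 and 1.85 in JZL184 and of 0.21, 0.10, 0.17 and 0.34 in SAP (3.81, or 2.77 without JZL184 library 3), and Tnnt2 (3.08), a troponin gene, was also highest in that library. Dio2, which activates thyroid hormone, had a log2 fold change of 3.59. On the lower side, Pla2g4c, a phospholipase A2 gene, had an FPKM of 1.42, 0.14, 0.06 and 0.70 in JZL184 and of 23.96, 25.9, 3.64 and 2.15 in SAP. SAP libraries 1 and 2 were far above SAP libraries 3 and 4 there, and the log2 fold change of -4.37 (edgeR adjusted p = 0.0909, DESeq2 adjusted p = 9.02e-05) was -2.28 with SAP libraries 3 and 4 alone. In Rnf180 (-2.998) and Itgb3 (-2.89) SAP libraries 1 and 2 were also above SAP libraries 3 and 4. Cd300le, a receptor gene of myeloid cells, had an FPKM of 1.16, 0.82, 0.47 and 0.50 in JZL184 and of 2.31, 2.85, 18.7 and 8.33 in SAP (-3.33, edgeR adjusted p = 0.0851, DESeq2 adjusted p = 0.00014), and there SAP libraries 3 and 4 were the high ones.

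**Figure D4:**
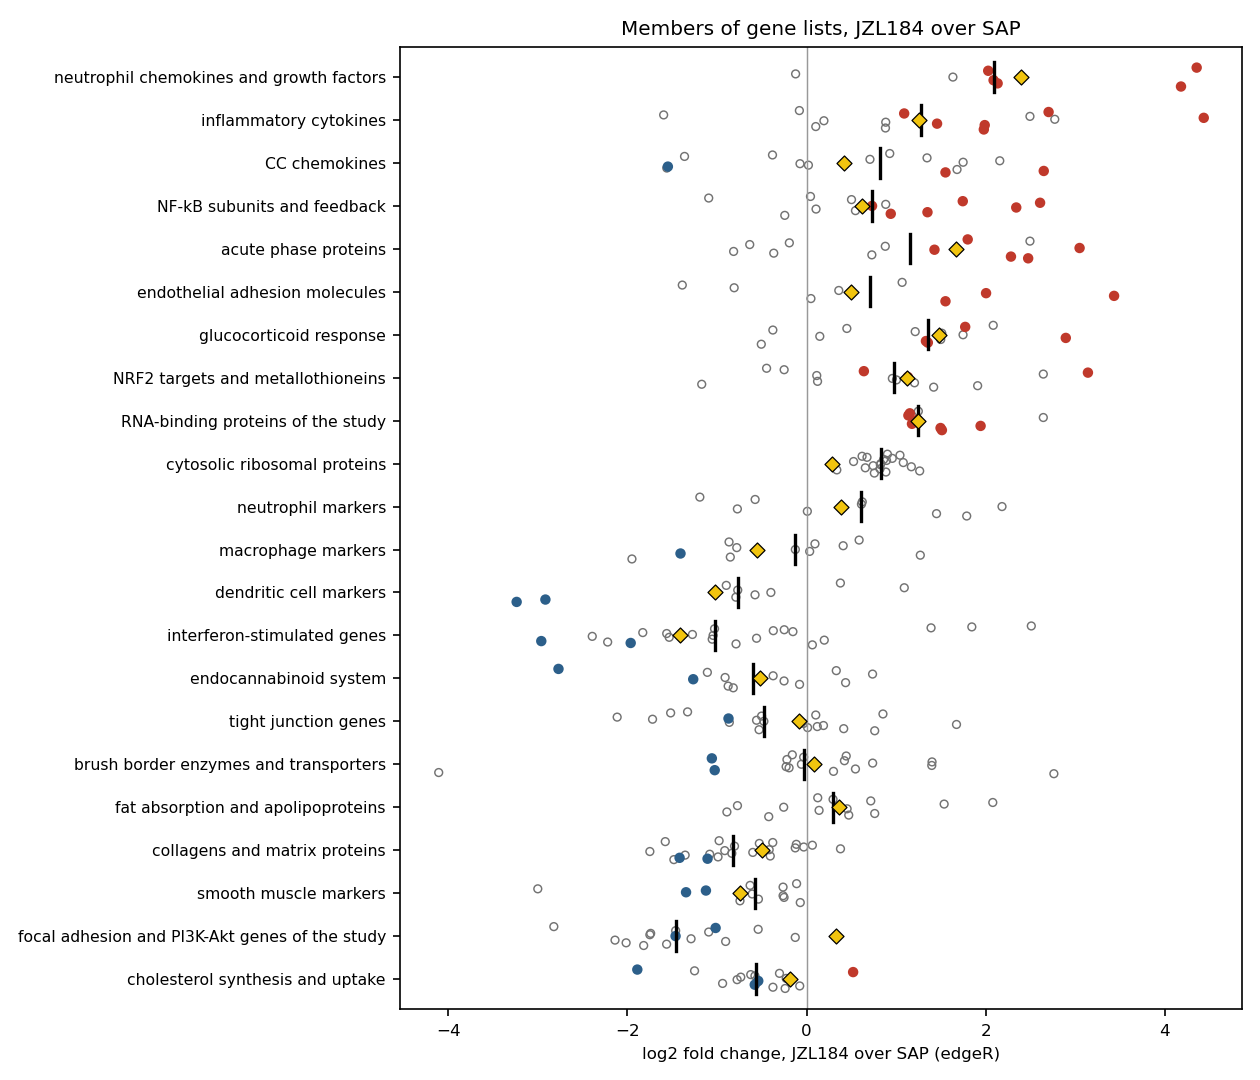
Log2 fold change of JZL184 over SAP (edgeR) for the tested members of 22 gene lists, 1 point per gene, filled red or blue where the groups did not overlap and open where they did. Black bars mark the median over all libraries and yellow diamonds the median with SAP libraries 3 and 4 alone, which moves from -1.46 to 0.33 in the focal adhesion and PI3K-Akt list and from 2.09 to 2.39 in the neutrophil chemokine list.

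**Figure D5:**
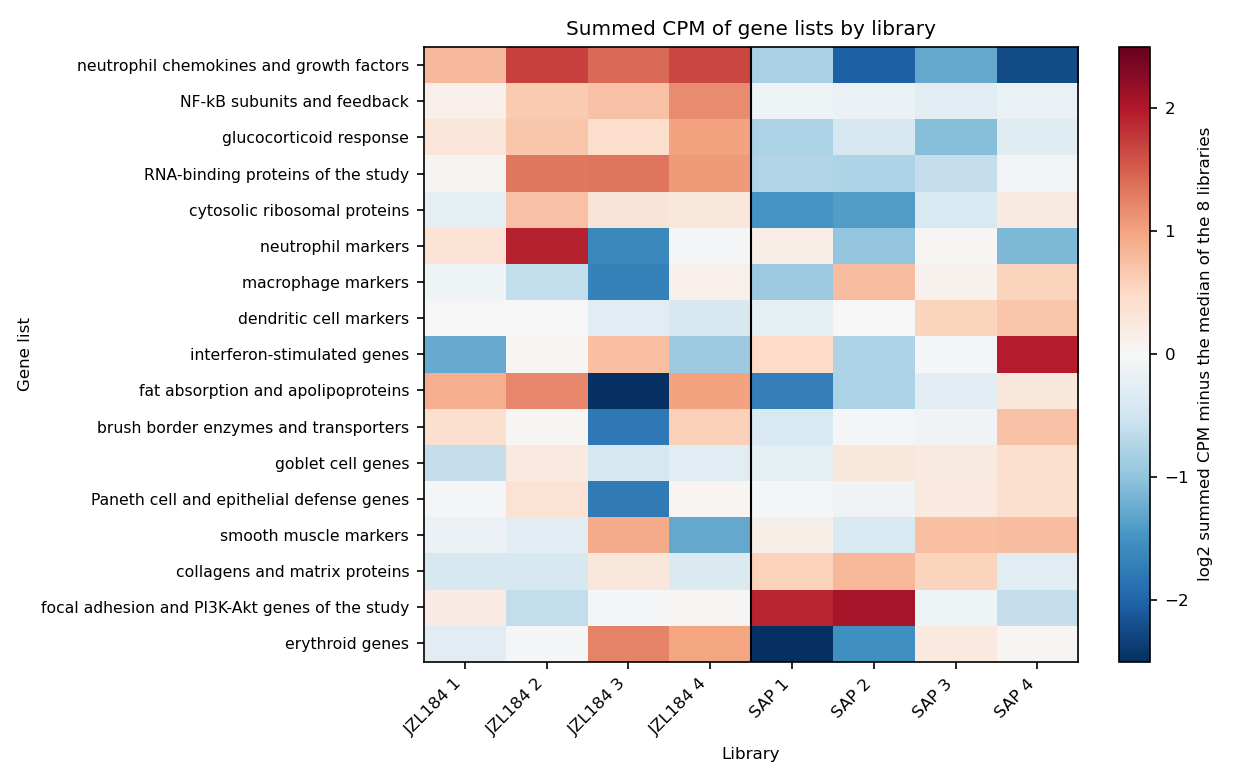
Summed CPM of 17 gene lists (rows) in the 8 libraries (columns), as log2 minus the median of the 8 libraries, red above and blue below it. The neutrophil chemokine row runs from 325 to 607 CPM in JZL184 and from 39.2 to 105 in SAP, whereas the fat absorption row is lowest in JZL184 library 3 with 1230 CPM.

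Two-sided exact permutation tests on the FPKM, for which 0.0286 is the smallest p that 4 against 4 libraries allow, gave that value, which the absence of overlap fixes and for which most of these genes were chosen, for Cxcl1, Csf3, Il6, Il10, Nfkbia, Tnfaip3, Birc3, Socs3, Sele, Zbtb16, Mt2A, Ifit1, Clec9a, Xcr1, Gpr55, Abhd12 and Clca1. For Tnf and Il22 the exact permutation p was 0.0571, and for Mgll it was 0.857. Il22 was apart in normalized counts but not in FPKM (1.22 in JZL184 library 3 and 1.29 in SAP library 1). These p values are not adjusted for the number of genes. They compare the groups over 8 rats, each of which gave 1 library, and do not measure the spread between libraries.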

How the data were processed

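Per the study's methods, ileum RNA was sequenced as stranded mRNA libraries, reads were trimmed and aligned to mRatBN7.2 with HISAT2, and uniquely aligned reads were counted per gene. The authors deposited these counts, not normalized, and FPKM values rounded to 2 decimals, for each library. The counting tool and its annotation were not given in the sources used here. Uniquely aligned reads undercount genes with near-identical copies.

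From the counts of 4 JZL184 and 4 SAP libraries, edgeR 4.0.16 (quasi-likelihood test, TMM, filterByExpr with a minimum count of 10, 15308 genes) was the main test. DESeq2 1.42.0, the tool of the study, and limma 3.58.1 (voom with sample quality weights) were alternatives, in R 4.3.3. A call needed a Benjamini-Hochberg adjusted p under 0.05 together with a fold change of over 2 or under 0.5. Log2 fold changes and standard errors are edgeR's, and per-library values are the deposited FPKM. Exact permutation tests used FPKM in Python 3.11.15. The scripts were tested on simulated data. Depth was 26341299 to 33847135 reads, so that counting error is small for all but the genes with few reads.

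The comparison and 56 gene lists were chosen with earlier results of these data known, and 2 lists were chosen by the study on these samples. Named are Mgll, Cnr1, Cnr2, Il6 and Tnf; the 10 largest log2 fold changes per direction among genes whose mean count reached 100, with groups apart and a DESeq2 call, leaving out sex-linked genes, LOC and RGD symbols and symbols ending in a provisional number; and per list the 2 members with the smallest edgeR p among those whose mean count reached 50, with every member whose groups were apart. Some genes that met this rule are not reported here. Promoters came from RefSeq GRCr8. Alternatives covered normalization, filters, gene length offsets, tools, a replicate block, SAP libraries 1 and 2 or 3 and 4 alone, and each library left out. The 3 control libraries and the columns of other comparisons were not used.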

Additional observations from a re-analysis of the deposited data

Results flagged for a closer look

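In 104 groups of 4 libraries, the FPKM of the genes whose libraries are printed in the Results were searched. The search was for a highest or lowest library far from the rest. It used the gap to the nearest library over the range of the group (Dixon's limit for 4 values). Chance passes that limit in about 1 of 20 groups, and 7 of the 104 passed. JZL184 library 3 was the one apart for Ifit1 (gap 0.9 of the range, FPKM 0.06 against 3.93 to 4.36), Cxcl10 (0.925, 18.9 against 1.25 to 2.58) and Lpo (0.915, 141 against 1.53 to 13.5). JZL184 library 1 was apart for Cpa3 (0.833, 0.06 against 0.31 to 0.36) and Batf2 (0.906, 0.94 against 0.09 to 0.17), and JZL184 library 4 for Fkbp5 (0.859, 76.0 against 61.5 to 63.5). SAP library 4 was apart for Isg15 (0.884, 884 against 20.9 to 121). Car1 and Fgf19, whose libraries are printed under the other observations, were outside this search. In Car1 the FPKM of JZL184 library 3 was 477.54, against 0.17 to 24.5 in the other JZL184 libraries.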

How the results depend on the processing

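The number of genes called by edgeR was 0 with a robust prior, DESeq2 size factors, at least 10 reads in every library, gene length offsets, no fold change threshold and SAP libraries 3 and 4 alone, 27 with no filter on low counts, and 2912 with SAP libraries 1 and 2 alone. It ran from 0 to 655 when 1 library was left out, 655 without JZL184 library 1 and 1 without SAP library 2. limma-voom with sample quality weights called 1312 and DESeq2 1283 over all its genes. The 1283 of DESeq2 became 4194 with SAP libraries 1 and 2 alone, 696 with SAP libraries 3 and 4 alone and 574 to 2306 with 1 library left out: 574, 805, 686 without JZL184 libraries 2, 3, 4, 694 and 600 without SAP libraries 1 and 2, and 2306 and 2234 without JZL184 library 1 and SAP library 4. Groups did not overlap in 1810 genes, and in 2082 to 4051 with 1 library left out, the highest without JZL184 library 1 and 3149 without SAP library 4. The cause of these shifts was not tested. Of 194 named genes, 185 kept their direction in all 31 alternatives. Most of them were named for a difference in these same libraries, so this count is no independent support for their direction. Log2 fold changes with 1 library left out ran up to 0.383 for Cela1 and 0.718 for Mgll, and down to -2.25 for Ifit3.

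With SAP libraries 3 and 4 alone the log2 fold change had the opposite sign for Cnr1 (0.30 with edgeR, 0.28 with DESeq2), Cnr2 (-0.051, -0.065), Ctnnd1 (0.091, 0.075), Dsp (0.27, 0.26) and Mgam (0.85, 0.84), and with SAP libraries 1 and 2 alone for Fabp6 (0.14, 0.15) and Ifit3 (0.080, 0.086). Ifit3 also turned without SAP library 4 (0.090, 0.094), and Mgll turned without JZL184 library 3 (-0.28, -0.28) and with limma-voom (-0.18). Cela1 turned with gene length offsets (-0.090, and -0.16 with the replicate block added), with SAP libraries 3 and 4 alone (-0.40, -0.41), without JZL184 library 1 (-0.041, -0.030) or 2 (-0.15, -0.15) and without SAP library 1 (-0.11, -0.12) or 2 (-0.096, -0.10). With the replicate block edgeR called 0 and DESeq2 1068 genes. Libraries of the same number had correlations of 0.136, -0.47, -0.01 and -0.105, none above 0.136. These values are too few to decide whether equal numbers mark a pairing. Exact tests on log2(FPKM + 1) moved 0 of 194 genes across the threshold. That was fixed in advance, since only full separation in FPKM passes it and the log2 scale keeps the order of the libraries.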

Other observations

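Colon and ileum marker genes held a large difference that was not called. Car1 had an FPKM of 0.33, 24.5, 478 and 0.17 in JZL184 libraries 1 to 4 and of 0.37, 0.20, 0.51 and 0.79 in SAP libraries 1 to 4. JZL184 libraries 2 and 3 were far above the other 6, the groups overlapped, and the log2 fold change was 8.11 (SE 2.25, edgeR adjusted p = 0.115). Fgf19, the ileal hormone gene that bile acids induce, had an FPKM of 0.44, 0.66, 6.52 and 22.1 in JZL184 and of 2.69, 0.18, 0.55 and 0.09 in SAP, with 2 high JZL184 libraries and a log2 fold change of 3.28 (edgeR adjusted p = 0.198).

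Cell cycle and DNA replication genes were lower in 17 of 19 cases with a median log2 fold change of -0.47 and 1 gene called, Top2a (-1.47). With SAP libraries 3 and 4 alone Top2a was at -0.58 and 0 genes of the list were called, as without SAP library 1 or 2 or JZL184 library 2, 3 or 4. Erythroid genes were higher in 5 of 5 cases with 0 called and a median of 1.15, which was 0.48 with SAP libraries 3 and 4 alone. Oxidative phosphorylation genes were higher in 15 of 20 cases with 0 called, and lower in 16 of 20 with SAP libraries 3 and 4 alone. Neuron and glia markers (14 tested), enteroendocrine and tuft cell genes (13 tested) and lipogenesis genes (11 tested) had 0 called.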
